A study of Homo sapiens with 24 samples.

Results

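The comparison was that of HEK293T cells transfected with an SF3B2 plasmid against HEK293T cells transfected with an eGFP plasmid, and its members were the 6 RNA-seq libraries of those groups, 3 replicates of each, of the 24 in the series. HEK293T is a human embryonic kidney line, and the other 18 libraries were HEK293T cells given snaR-A or scramble plasmids and A549 lung adenocarcinoma cells given each of the 4 plasmids. SF3B2 and eGFP were expressed from the same pcDNA3.1 backbone with a C-terminal DYK tag, whereas snaR-A and its scrambled sequence were expressed from a U6 promoter. All cells were transfected with Lipofectamine and collected after 48 h, so the eGFP cells share the transfection, the backbone and the tag with the SF3B2 cells and differ in the coding sequence. The transfections were transient and in an established line, no untransfected cells were compared, and the replicates were processed on the same day, so p-values measure the spread between these cultures. A higher share of transfected cells and more RNA per transfected cell cannot be told apart in such bulk libraries.

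SF3B2 is a subunit of SF3B, which together with SF3A and the U2 snRNA belongs to the U2 snRNP. This particle recognizes the branch point of an intron early in spliceosome assembly, and SF3B1, the largest SF3B subunit, holds the branch point helix. Cells coordinate the level of splicing factors partly through splicing of the factors' own transcripts, and transcripts with premature stop codons are removed by nonsense-mediated decay. The questions were therefore whether the SF3B2 transcript was raised, whether the transcripts of its partners and of other splicing factors differed, and which other genes did. Values are levels in CPM, counts scaled to the library size after TMM normalization over the 12 HEK293T libraries, unless stated otherwise. They do not correct for transcript length, so levels are compared between libraries for 1 gene, not between genes.

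The libraries held 195186194 to 259704262 estimated counts, and a gene with no count could still be at up to 0.0116 to 0.0154 CPM, the level of 3 counts, by counting error alone. Each library had 9 of 12 markers of HEK293T, such as LIN28B and NEFM, at 1 CPM or more. Replicate 3 of each group was looked at more closely. The library labelled eGFP replicate 3 carried transcripts typical of A549: the 16 A549 markers summed to 967 CPM of total counts there, with 13 of them at 1 CPM or more, against 21.5 and 20.9 CPM in eGFP replicates 1 and 2, 24.4, 26.5 and 47.4 CPM in SF3B2 replicates 1 to 3, and 25.4 to 32.7 CPM in the other HEK293T libraries. Over 56 genes with at least 50 CPM in every A549 library and at most 0.5 CPM in the scramble and snaR-A libraries of HEK293T, the median level in eGFP replicate 3 was 5.59% of that in A549, against 0.177% in SF3B2 replicate 3 and 0.0277% to 0.0338% in the remaining 4 libraries. The markers TFF1 and LCN2 were at 0 in eGFP replicates 1 and 2 and at 0.00496 and 0.0942 CPM in eGFP replicate 3. SF3B2 replicate 3 lay between the groups: on the first principal component, with 36.4% of the variance, the eGFP libraries were at -28.9, -23.28 and -48.93, SF3B2 replicates 1 and 2 at 68.09 and 43.16, and SF3B2 replicate 3 at -10.14. Across 22623 genes, which are not independent replicates, its Spearman correlation was 0.9918, 0.9903 and 0.9877 with eGFP replicates 1 to 3 and 0.9862 and 0.9902 with SF3B2 replicates 1 and 2. Between SF3B2 replicates 1 and 2 the correlation was 0.9905. SF3B2 replicate 1 differed from its group about as widely as replicate 3 did. It had 1177 genes more than 1 log2 from the mean of its other replicates, against 887 for replicate 2 and 1118 for replicate 3. Counts are therefore also given without replicate 3 of each group, and with each other library left out.

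SF3B2 (ENSG00000087365; GRCh38, chromosome 11, 66050729 to 66069308, plus strand) was at 352, 390 and 343 CPM in the eGFP libraries and at 43982, 34026 and 28092 CPM in the SF3B2 libraries. The groups were far apart, and the lowest of the SF3B2 libraries was replicate 3. The means were 362 ± 24.8 CPM (SD, n = 3) and 35367 ± 8029 CPM (SD, n = 3). The log2 fold change was 6.60 with a standard error of 0.24 and an adjusted p of 0.000534 from edgeR's quasi-likelihood F-test. A two-sided exact permutation test of the levels gave p = 0.1, and 3 against 3 libraries can give none smaller. The counts can hold coding sequence of the plasmid, which cannot be told apart from the transcripts of the cell's own gene. NME1, a nucleoside diphosphate kinase that the study followed with snaR-A, was at 171, 167 and 172 CPM with eGFP and at 147, 163 and 180 CPM with SF3B2. Its groups overlapped, with a log2 fold change of -0.07, a standard error of 0.08 and an adjusted p of 0.635, and 20.5% of its 31-base sequence words also occur in another gene, most of them in NME1-NME2.

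The test of all 6 libraries called few genes beyond SF3B2 itself, and other tools and sets of libraries called more. Of 22623 genes tested, 30 (0.133%) passed the threshold, which asked for an absolute log2 fold change over 1 beside an adjusted p under 0.05, of which 6 (0.0265%) were higher and 24 (0.106%) lower with SF3B2. At an adjusted p under 0.05 alone there were 39 genes (0.172%), 9 higher (0.0398%) and 30 lower (0.133%). An unadjusted p under 0.05 was found for 4904 genes (21.7%). The groups did not overlap for any of the 30 genes, which is a part of being called, while this held for 6594 (29.1%) of all genes. Of the 30, 19 were protein-coding, 4 were long noncoding RNAs, 5 were processed pseudogenes, transcribed ones included, and 2 IDs were not in GENCODE 44. Most were at low levels, 21 of the 30 having a mean under 1 on the log2 CPM scale. edgeR's exactTest called 250 genes (1.11%) and DESeq2 226 (0.999%) from the same libraries, each with all 30 among them. DESeq2 had 1075 genes higher (4.75%) and 1004 lower (4.44%) at an adjusted p under 0.05.

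**Figure D1:**
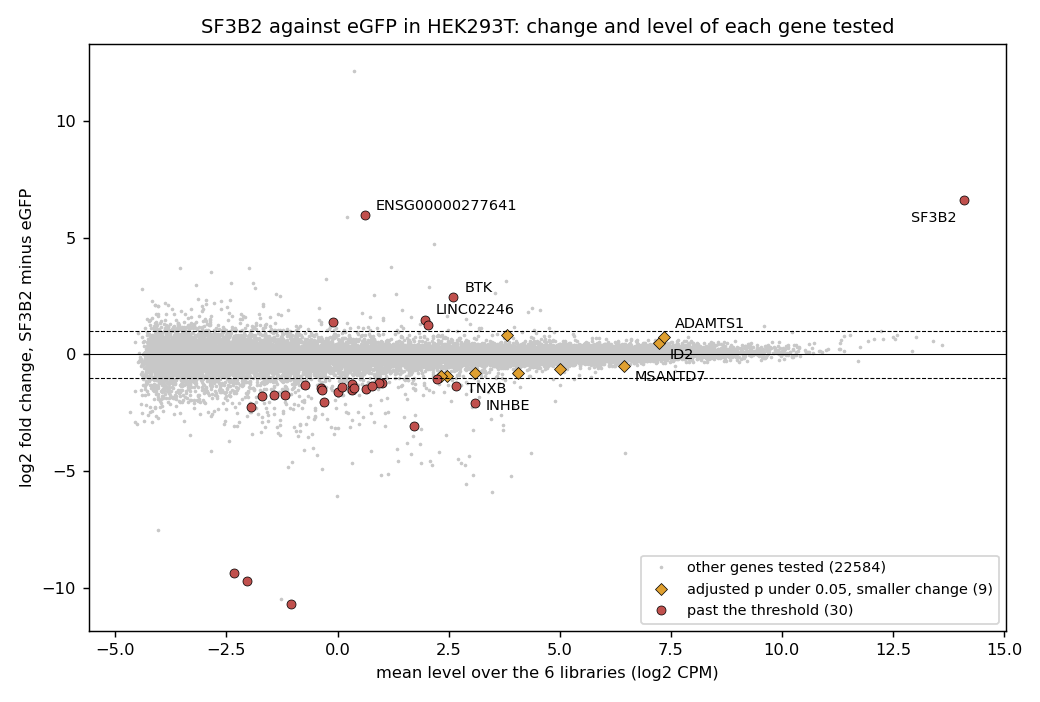
Each point is a gene tested, placed by its mean level over the 6 libraries (log2 CPM, x axis) and its fitted log2 fold change of SF3B2 over eGFP (y axis). SF3B2 stands alone at the upper right, most of the 30 red points lie to the left and below 0, and the 3 lowest red points are genes listed at 0 in every SF3B2 library, whose fitted fold has no fixed size.

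Among the genes that rose, BTK had the largest change after SF3B2 of those with a symbol. BTK (ENSG00000010671; chromosome X, 101349338 to 101390796, minus strand) encodes Bruton tyrosine kinase, which signals downstream of the B cell receptor. It was at 1.86, 2.06 and 1.78 CPM with eGFP and at 13.4, 8.65 and 9.16 CPM with SF3B2. The SF3B2 libraries were all above the eGFP ones, and the fitted change was 2.44 ± 0.19 on the log2 scale (SE, adjusted p = 0.0217). Markers of blood cells were near 0 in all 6 libraries: the summed level of the 9 of 16 that were tested was 3.12 to 3.58 CPM with eGFP and 2.96 to 3.14 CPM with SF3B2, and MS4A1 and HBB were at 0 in every library. PTPRC, the pan-leukocyte marker, was at 0 in 5 libraries and at 0.0167 CPM in SF3B2 replicate 3.

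The long noncoding RNA LINC02246 was at 2.07, 1.65 and 2.52 CPM with eGFP and at 6.0, 5.73 and 5.76 CPM with SF3B2 (log2 fold change 1.48 ± 0.17 SE, adjusted p = 0.0413). HSP90B2P, a pseudogene of the endoplasmic reticulum chaperone HSP90B1, rose from 0.514 ± 0.0634 to 1.34 ± 0.165 CPM (SD, n = 3 each), with 22.1% of its sequence words in another gene, most often HSP90B1 itself. HSP90B1 was at 967, 1017 and 1011 CPM with eGFP and at 1300, 1131 and 1070 CPM with SF3B2, with an adjusted p of 0.235. An ID with no symbol and no place in GENCODE 44, ENSG00000277641, was at 0.0438, 0.0227 and 0.0793 CPM with eGFP and at 2.88, 3.28 and 2.94 CPM with SF3B2. It was named after its values were seen, and in the other HEK293T libraries it lay between 0 and 0.0196 CPM. Its fitted change was 5.95 ± 0.39 on the log2 scale (SE, adjusted p = 0.0164). In A549 it was all or nothing by library, at 0, 6.69 and 0 CPM with SF3B2 and at 4.72, 3.45 and 2.53 CPM with eGFP. Its counts are therefore uncertain, and how its reads were assigned was not tested.

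At higher levels, 3 genes rose by less than the fold threshold. ID2 encodes an inhibitor of basic helix-loop-helix transcription factors and was at 128, 122 and 130 CPM with eGFP and at 181, 177 and 177 CPM with SF3B2. Its replicates were tight, and the log2 fold change of 0.49 (standard error 0.05) had an adjusted p of 0.0355. ADAMTS1, a secreted metalloprotease that cleaves matrix proteoglycans, went from 134, 108 and 126 CPM to 210, 208 and 197 CPM (log2 fold change 0.73, adjusted p = 0.0467). ITGA8, the integrin alpha subunit required in kidney development, went from 10.4, 9.76 and 10.6 CPM to 18.9, 17.8 and 17.8 CPM (log2 fold change 0.81, adjusted p = 0.0217). In all 3 genes the groups were apart and SF3B2 replicate 3 lay with the other SF3B2 replicates.

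Of the genes that fell, INHBE (ENSG00000139269; chromosome 12, 57452323 to 57459280, plus strand) encodes the inhibin beta E subunit, a secreted factor of the TGF-beta family that the stress transcription factor ATF4 induces, and it was at 13.5, 16.1 and 12.1 CPM with eGFP and at 2.87, 2.98 and 4.08 CPM with SF3B2. The groups were far apart, with a fitted log2 change of -2.08 ± 0.18 (SE, adjusted p = 0.0217). BTC, betacellulin, a ligand of the EGF receptor, was at 1.09, 1.11 and 1.26 CPM with eGFP and at 0.404, 0.426 and 0.356 CPM with SF3B2, a log2 fold change of -1.55. TNXB (chromosome 6, 32041153 to 32115334, minus strand), the extracellular matrix glycoprotein tenascin X, was at 9.96, 9.47 and 8.11 CPM with eGFP and at 3.01, 3.43 and 4.41 CPM with SF3B2. Its fitted change was -1.35 ± 0.17 on the log2 scale (SE, adjusted p = 0.0492), and 12.6% of its sequence words occur in another gene, most often its duplicated copy TNXA. ITGA10, the integrin subunit of a collagen receptor, fell from 1.89 ± 0.128 to 0.702 ± 0.0657 CPM, and ALB, serum albumin, from 0.667 ± 0.0508 to 0.199 ± 0.0239 CPM (SD, n = 3 each).

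MYH3, embryonic myosin heavy chain, was at 5.85, 7.13 and 6.14 CPM with eGFP and at 3.32, 3.18 and 2.83 CPM with SF3B2 (log2 fold change -1.04 ± 0.12 SE, adjusted p = 0.0456). Of the 16 skeletal muscle markers none of the 9 tested had an adjusted p under 0.05. At an unadjusted p under 0.05, 3 were lower, against 11.4% of all genes. The median log2 fold change of the markers was -0.31, against -0.02 over all genes. Their summed level was 12.2 to 16.1 CPM with eGFP and 12.3 to 18.6 CPM with SF3B2, and TNNT3 was at 0 in all 6 libraries. UNC79, an accessory subunit of the sodium leak channel of neurons, fell from 1.86 ± 0.154 to 0.637 ± 0.0507 CPM, and GDAP1L1, a relative of a mitochondrial protein of nerve, from 1.78 ± 0.260 to 0.733 ± 0.0570 CPM (SD, n = 3 each). CNKSR1, a scaffold of Ras signaling, went from 2.83 ± 0.312 to 1.22 ± 0.157 CPM, COPZ2, a coatomer subunit of vesicle transport, from 1.12 ± 0.0182 to 0.418 ± 0.0729 CPM, and C3orf20 from 0.853 ± 0.0531 to 0.345 ± 0.0405 CPM.

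Some of the lower genes share much of their sequence with others. The forkhead factors FOXD4 and FOXD4L5, copies of 1 family on chromosome 9, fell from 2.69 ± 0.283 to 1.14 ± 0.0705 CPM and from 2.29 ± 0.255 to 0.817 ± 0.0697 CPM (SD, n = 3 each). Since 73.7% and 56.4% of their 31-base sequence words occur in other genes, their counts are uncertain. RPL7AP16 and RPL7AP33, pseudogenes of a ribosomal protein gene, fell from 1.51 ± 0.143 to 0.491 ± 0.0448 CPM and from 0.419 ± 0.0933 to 0.0873 ± 0.00362 CPM. PARGP1, which was named after its values were seen, fell from 6.71 ± 0.278 to 3.48 ± 0.0667 CPM, with 79.6% of its words in another gene, most often PARG. An ID that is not in GENCODE 44, ENSG00000228520, was at 8.29, 4.70 and 4.71 CPM with eGFP and at 0.764, 0.549 and 0.795 CPM with SF3B2. It varied as widely within the other HEK293T groups, at 3.73, 0.188 and 10.9 CPM with scramble and 3.54, 7.47 and 0.713 CPM with snaR-A, and its adjusted p was 0.0217 from 6 libraries and 0.0905 with all 12 in the fit. At higher levels, MSANTD7 fell from 105, 105 and 100 CPM to 71.4, 74.2 and 72.7 CPM (log2 fold change -0.51 ± 0.05 SE, adjusted p = 0.0217). ZNF274, a zinc finger protein that binds repeat-rich gene clusters, fell from 39.0, 40.6 and 37.8 CPM to 25.2, 24.3 and 27.0 CPM (log2 fold change -0.63, adjusted p = 0.0246).

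Another 3 of the lower genes were listed at 0 in all SF3B2 libraries, and such values can be failed estimates where reads are divided among transcripts, so no fold is given. PVALB, the calcium-binding protein parvalbumin, was listed at 0.565, 0.322 and 0.540 CPM with eGFP, and it was at 0 in 17 of the 24 libraries of the series. The bitter taste receptor gene TAS2R14 was at 0.381, 0.408 and 0.352 CPM with eGFP and at 0 in 6 of the 24 libraries, and 20% of its sequence words occur in other genes. The pseudogene ZNF37BP was at 1.35, 0.925 and 0.585 CPM with eGFP and at 0 in 19 of the 24 libraries.

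The levels with the other plasmids in HEK293T show where eGFP itself stood, although these comparisons share the eGFP libraries and the snaR-A and scramble plasmids differ in promoter. INHBE was at 3.62, 3.16 and 3.24 CPM with scramble and at 7.54, 9.0 and 7.32 CPM with snaR-A, so eGFP was the highest of the 4 groups and SF3B2 and scramble overlapped. In TNXB, scramble was at 1.75, 2.11 and 1.78 CPM, below every SF3B2 library, and snaR-A at 4.42, 4.94 and 3.52 CPM, which overlapped SF3B2. BTC was at 0.0245, 0.0613 and 0.0536 CPM with scramble, below SF3B2 as well as eGFP. ID2 was at 268, 280 and 253 CPM with scramble and ADAMTS1 at 513, 447 and 451 CPM, both above SF3B2, with eGFP the lowest group. BTK had another order: scramble was at 0.478, 0.666 and 0.600 CPM and snaR-A at 0.827, 0.872 and 1.10 CPM, both below eGFP, and SF3B2 was above all 9 other libraries. LINC02246, at 3.66, 3.26 and 4.64 CPM with scramble and 2.83, 2.68 and 2.59 CPM with snaR-A, was likewise highest with SF3B2. Neither of these orders was tested.

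**Figure D2:**
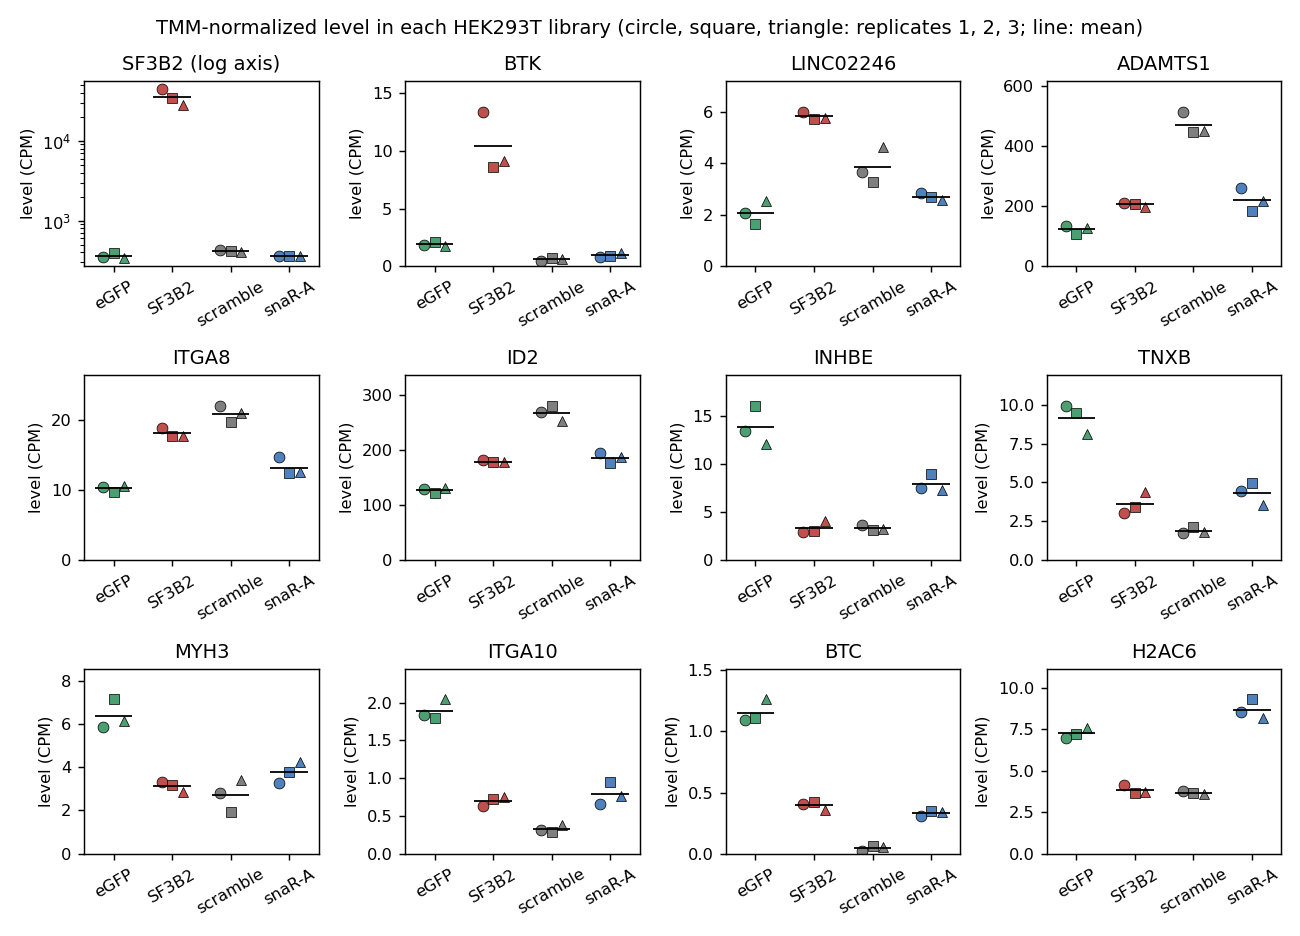
TMM-normalized level (CPM, y axis) of 12 genes in each HEK293T library, by plasmid (x axis), with replicates 1, 2 and 3 as circle, square and triangle and the mean of 3 as a line. SF3B2, on a log axis, is between 28092 and 43982 CPM in its own libraries, BTK and LINC02246 are highest with SF3B2, and INHBE, TNXB, MYH3, ITGA10 and BTC are highest with eGFP.

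The number of calls depended on which library was left out. Without SF3B2 replicate 3, the threshold was passed by 335 of 23264 genes (1.44%), with 119 higher (0.512%) and 216 lower (0.928%), and 29 of the first 30 were among them. Without eGFP replicate 3, 13 genes passed (0.0559%), 9 of them among the 30, and without replicate 3 of either group there were 280 (1.23%), with 29 of the 30. Leaving out any of the other libraries left 1 to 6 calls: 6 without SF3B2 replicate 1, 2 without SF3B2 replicate 2, 1 without eGFP replicate 1 and 2 without eGFP replicate 2. SF3B2 kept its call in all 6 repeats. All 30 genes had the same sign in each repeat, so what changed was the adjusted p, which for BTK lay between 0.00623 and 0.163 and for INHBE between 0.00885 and 0.177. Their log2 fold changes lay between 2.22 and 2.57 and between -2.24 and -1.97.

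**Figure D3:**
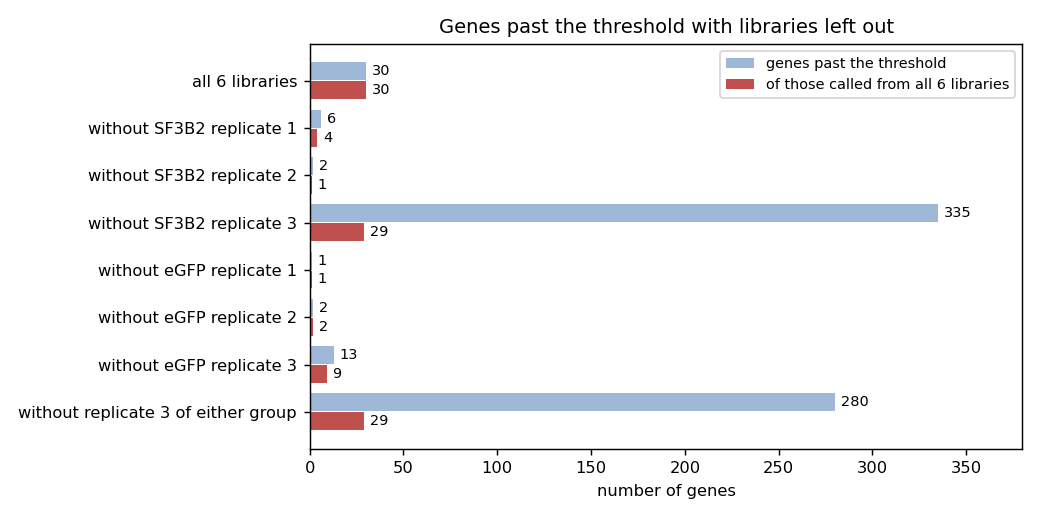
Number of genes past the threshold (x axis) from all 6 libraries and with the named library left out (y axis), in blue, and how many of them are among the 30 called from all 6 libraries, in red. The counts rise to 335 and 280 where SF3B2 replicate 3 is left out and fall to between 1 and 13 where any other single library is.

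Of the 335 genes called without SF3B2 replicate 3, 306 were not among the 30, 113 higher and 193 lower. On a scale where the eGFP mean is 0 and the mean of SF3B2 replicates 1 and 2 is 1, SF3B2 replicate 3 had a median position of 0.45 over the 322 called genes that could be placed, 168 of which were nearer to eGFP. The genes were chosen on the other 5 libraries, so this position is a description. The rule for named genes took the largest of these changes at a mean of at least 1 log2 CPM. Several were all or nothing by library: PSMB3, a proteasome subunit, was listed at 48.6, 52.0 and 37.0 CPM with eGFP and at 0, 0 and 56.1 CPM with SF3B2. On chromosome 6, RING1, a Polycomb ubiquitin ligase (33208500 to 33212722), was listed at 22.8, 26.3 and 21.6 CPM and then 0, 0 and 8.76 CPM, and VPS52, a vesicle tethering subunit (33250272 to 33272047), at 8.80, 9.88 and 6.91 CPM and then 0, 0 and 12.8 CPM.

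The zinc transporter gene SLC39A7, which lies beside them (33200305 to 33204439), went the other way, with 17.6, 15.1 and 19.0 CPM with eGFP and 56.1, 51.4 and 6.28 CPM with SF3B2. PSMB3, RING1 and VPS52 are used by most cells and were at 0 in 5, 4 and 8 of the 24 libraries, so a listed 0 need not mean absent transcripts. Other such calls share nearly all of their sequence with a partner: 90.3% of the words of ASDURF, 99.6% of BZW1P2, 100% of LSM12P1 and 92.2% of RPL36A-HNRNPH2 occur in other genes. ABI3BP, an extracellular matrix protein gene with 0.788% of its words shared, was an exception. It was at 2.27, 2.01 and 2.03 CPM with eGFP and at 6.82, 5.07 and 3.70 CPM with SF3B2, groups that did not overlap, with an adjusted p of 0.0726 from all 6 libraries and 0.0246 without SF3B2 replicate 3.

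The transcripts of SF3B2's partners did not change at the adjusted threshold. Of 24 genes of the U2 snRNP and the SF3A and SF3B complexes, SF3B2 left out, 23 were tested and none had an adjusted p under 0.05, while 4 were higher and 1 lower at an unadjusted p under 0.05, against 10.2% and 11.4% of all genes. DESeq2 had 2 of them higher at an adjusted p under 0.05 and none lower, against 4.75% and 4.44% of all genes. Their median log2 fold change was 0.09, against -0.02 over all genes, and -0.08 with scaling by library size, which moved the median of all genes to -0.18. SF3B1 was at 644, 618 and 633 CPM with eGFP and at 614, 643 and 729 CPM with SF3B2, overlapping groups with a log2 fold change of 0.06 (standard error 0.08). Those with the lower p-values moved with SF3B2 replicates 1 and 2. SF3A3, a subunit of SF3A, was at 202, 205 and 212 CPM with eGFP and at 290, 266 and 214 CPM with SF3B2. U2SURP, a U2-associated protein, was at 418, 359 and 437 CPM and then 596, 540 and 450 CPM, and HTATSF1, which binds SF3B1 in the U2 snRNP, at 279, 270 and 279 CPM and then 420, 350 and 305 CPM. SF3B5, the small SF3B subunit, was at 53, 53 and 51.2 CPM and then 33.2, 39.5 and 50 CPM. Without SF3B2 replicate 3, 4 of the 23 were higher at an adjusted p under 0.05 and 1 was lower, where 4.17% and 3.92% of all genes were. SF3A1 rested on 1 library, with 236, 239 and 226 CPM with eGFP and 475, 220 and 241 CPM with SF3B2, and its log2 fold change of 0.41 became -0.03 without SF3B2 replicate 1.

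Of 37 tested proteins of the other snRNPs none had an adjusted p under 0.05, 7 were higher and 3 lower at an unadjusted p under 0.05, and the median log2 fold change was 0.03. At an adjusted p under 0.05, 6 were higher and 2 lower without SF3B2 replicate 3, and 4 higher and 1 lower by DESeq2. For this list and the next 2, the shares of all genes were 10.2% higher and 11.4% lower at an unadjusted p under 0.05. With adjustment they were 4.17% and 3.92% without SF3B2 replicate 3, and 4.75% and 4.44% by DESeq2. Of 23 SR proteins and their kinases none passed either, with 5 higher and 4 lower at an unadjusted p under 0.05 and a median of 0.00. There were 3 higher and 1 lower without SF3B2 replicate 3, and 4 higher and 2 lower by DESeq2. Among the latter, CLK2, a kinase that phosphorylates SR proteins, was at 17.7, 19.9 and 18.9 CPM with eGFP and at 31.5, 32.8 and 24.8 CPM with SF3B2. Its groups did not overlap, and its adjusted p was 0.0765 from all 6 libraries and 0.0236 without SF3B2 replicate 3. SON, a large nuclear speckle protein, was at 538, 496 and 557 CPM and then 904, 770 and 593 CPM, and SRRM2, its speckle partner, at 790, 771 and 770 CPM and then 983, 864 and 872 CPM, with adjusted p of 0.156 and 0.194. None of the 20 nonsense-mediated decay factors passed, with 1 higher and 6 lower at an unadjusted p under 0.05 and a median log2 fold change of -0.04. When SF3B2 replicate 3 was left out, 2 of them were higher and 4 lower at an adjusted p under 0.05, and by DESeq2 1 was higher and 1 lower. The medians of the 3 lists were between -0.20 and 0.04 over the scalings tried, of which library size moved the median of all genes to -0.18.

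In the ATF4 program, which cells use when amino acids or translation are limiting, INHBE was the only gene of 44 tested with an adjusted p under 0.05. At an unadjusted p under 0.05, 14 were lower and 3 higher, against 11.4% and 10.2% of all genes, and the median log2 fold change was -0.12. CARS1, the cysteinyl-tRNA synthetase, was at 90.3, 97.4 and 82.1 CPM with eGFP and at 62.7, 61.2 and 67.4 CPM with SF3B2, groups that did not overlap, with an adjusted p of 0.0631. DDIT3, the stress factor CHOP, was at 14.2, 14.4 and 14.1 CPM and then 9.20, 10.3 and 13.2 CPM, and TRIB3, a pseudokinase induced by it, at 13.5, 13.7 and 14.9 CPM and then 8.54, 10.1 and 12.7 CPM. SLC3A2, the shared heavy chain of amino acid transporters, was at 221, 246 and 216 CPM and then 127, 165 and 201 CPM. In these 3 the groups were apart but SF3B2 replicate 3 was the nearest to eGFP, and their adjusted p was between 0.172 and 0.179. Without SF3B2 replicate 3, 6 of the 44 were lower and 1 higher at an adjusted p under 0.05, against 3.92% and 4.17% of all genes. By DESeq2, 11 were lower and 2 higher, against 4.44% and 4.75% of all genes. The ATF4 and C/EBP element TGATGNAA occurred on either strand within 250 bases before the start of 6 of 40 promoters of the list (15%) and in 3.19% of 27305 RefSeq promoters (GRCh38.p14).

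None of 24 genes of the unfolded protein response of the endoplasmic reticulum and none of 20 cytosolic heat shock genes had an adjusted p under 0.05. At an unadjusted p under 0.05, 4 and 5 of them were higher and 4 and 0 lower, against 10.2% and 11.4% of all genes. Their median log2 fold changes were 0.09 and 0.12, and -0.07 and -0.04 with scaling by library size, where the median of all genes was -0.18. Of the 20 heat shock genes, 4 were higher without SF3B2 replicate 3 at an adjusted p under 0.05, as by DESeq2, and none lower. Of the unfolded protein response genes, 1 was higher and 1 lower without it, and 1 was higher and 2 lower by DESeq2. The shares of all genes were 4.17% higher and 3.92% lower without SF3B2 replicate 3, and 4.75% and 4.44% by DESeq2. HSP90AA1 was at 3062, 3161 and 3203 CPM with eGFP and at 4053, 3848 and 3757 CPM with SF3B2, with an adjusted p of 0.151, and 0.000183 by DESeq2 to 0.391 over the alternatives. HSPD1, the mitochondrial chaperonin, was at 1404, 1408 and 1491 CPM and then 2493, 2017 and 1508 CPM (adjusted p = 0.196). Of 34 hypoxia and glycolysis genes none had an adjusted p under 0.05, but 13 were higher and none lower at an unadjusted p under 0.05, against 10.2% and 11.4% of all genes, and 27 had a positive sign. Their median log2 fold change was 0.16 beside -0.02 over all genes, and 0.00 beside -0.18 with scaling by library size. Summed over the 34 genes, eGFP was the lowest of the 4 plasmids, at 6723 to 6996 CPM. SF3B2, at 7567 to 7934 CPM, overlapped snaR-A, at 7545 to 7885 CPM, and lay below scramble, at 9063 to 10433 CPM. This order was not tested. NDRG1, a classic hypoxia gene, was at 85.2, 83.9 and 84.8 CPM with eGFP and at 148, 130 and 113 CPM with SF3B2, and BNIP3L, a mitophagy receptor, at 57.1, 49.8 and 59.6 CPM and then 88.4, 83.2 and 72.1 CPM. The glucose transporter gene SLC2A3 was at 13.4, 8.75 and 14.6 CPM and then 26.4, 25.3 and 19.9 CPM. In each the groups did not overlap and the adjusted p was between 0.0693 and 0.104. Without SF3B2 replicate 3, 6 of the 34 genes were higher at an adjusted p under 0.05, against 4.17% of all genes, and none lower. DESeq2 had 9 higher, against 4.75% of all genes, and none lower. ENO1, the enolase of glycolysis, was at 1156, 1269 and 1212 CPM and then 1689, 1547 and 1233 CPM. GAPDH, 1 of the 7 with a negative sign, was at 1340, 1252 and 1343 CPM with eGFP and at 1153, 1244 and 1481 CPM with SF3B2. Its groups overlapped, with a log2 fold change of -0.03 and an adjusted p of 0.891.

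Transcripts of the mitochondrial genome, which encodes 13 subunits of the respiratory chain, took a larger share of SF3B2 replicates 1 and 2. The 13 mRNAs summed to 39860, 40027 and 52738 CPM with eGFP and to 101930, 71987 and 44211 CPM with SF3B2, so SF3B2 replicate 3 lay among the eGFP libraries. The median log2 fold change was 0.65 and all 13 were positive, but none had an adjusted p under 0.05. An unadjusted p under 0.05 was found for 7, where 10.2% of all genes were higher. DESeq2 had 2 at an adjusted p under 0.05, where 4.75% of all genes were higher. MT-ND5, a complex I subunit, was at 2969, 3019 and 3654 CPM with eGFP and at 9568, 6272 and 3654 CPM with SF3B2 (log2 fold change 1.01 ± 0.33 SE, adjusted p = 0.167). MT-ND4L, of the same complex, was at 762, 664 and 1022 CPM and then 2370, 1498 and 890 CPM, and MT-CO3, of complex IV, at 4022, 3872 and 5159 CPM and then 10179, 7482 and 4469 CPM. Without SF3B2 replicate 3 the median was 0.91 and 8 of the 13 had an adjusted p under 0.05, where 4.17% of all genes were higher. Without replicate 3 of either group the median was 1.15, with 6, where 1.48% of all genes were higher and 2.12% lower. The groups overlapped for each of the 13. For MT-CO1, at 7869 to 10358 CPM with eGFP and 7967 to 17687 CPM with SF3B2, 66.7% of sequence words occur in nuclear copies or other genes.

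Replication-dependent histone genes, which package newly made DNA in S phase, had mostly negative signs, and 2 of 47 fell at an adjusted p under 0.05, H2AC6 and H3C6. Their mRNAs end in a conserved stem-loop instead of a poly(A) tail, so poly(A) libraries take them up poorly, and many of their promoters carry CCAAT boxes. The list was added after values had been seen. Of 47 tested, 46 had a negative sign, 23 had an unadjusted p under 0.05, against 11.4% of all genes that were lower at that level, and 15 had groups that did not overlap, as 29.1% of all genes did in either direction. DESeq2 had 13 lower at an adjusted p under 0.05, against 4.44% of all genes. The median log2 fold change was -0.96, and between -1.11 and -0.95 over the scalings. The stem-loop, searched on the transcript strand as 16 bases (GG, any 2 bases, CTTTT, any base, AG, any 2 bases, CC), occurred in annotated transcripts of 46 of the 47 (97.9%) and of 24 of 15622 other protein-coding genes tested (0.154%). It is shown in capitals, 5′ to 3′ with its flanks from GENCODE 44 transcripts, for 2 of the genes with values below:
H2AC6: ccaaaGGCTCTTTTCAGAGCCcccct
H1-2: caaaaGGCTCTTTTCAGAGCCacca

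CCAAT occurred on either strand within 250 bases before the start of 54 of 64 histone promoters (84.4%), against 33% of all RefSeq promoters. The 250 bases before the start of H2AC6, the histone gene with the lowest p-value, are shown 5′ to 3′ from RefSeq (GRCh38.p14, chr6:26123922-26124171, plus strand), with CCAAT on either strand in capitals:
H2AC6: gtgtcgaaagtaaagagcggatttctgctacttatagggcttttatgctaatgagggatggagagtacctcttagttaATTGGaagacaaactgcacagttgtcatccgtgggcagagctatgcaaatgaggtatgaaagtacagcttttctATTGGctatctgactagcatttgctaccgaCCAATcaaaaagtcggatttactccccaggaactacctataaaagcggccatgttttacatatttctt

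H2AC6, a histone H2A gene, was at 6.99, 7.19 and 7.59 CPM with eGFP and at 4.15, 3.67 and 3.73 CPM with SF3B2 (log2 fold change -0.92 ± 0.10 SE, adjusted p = 0.0355). H3C6, a histone H3 gene, was at 10.5, 11.9 and 10.3 CPM and then 6.66, 6.11 and 6.19 CPM (log2 fold change -0.79, adjusted p = 0.0461). In both, all SF3B2 libraries were below all eGFP libraries, replicate 3 included. The linker histone gene H1-2 was at 12.1, 16.9 and 11 CPM and then 5.87, 6.48 and 8.56 CPM (adjusted p = 0.105), H2BC15 at 10.3, 12.1 and 8.95 CPM and then 5.01, 5.48 and 7.07 CPM (0.0890), and H2BC6 at 1.01, 1.11 and 1.12 CPM and then 0.408, 0.448 and 0.582 CPM (0.0639). Others varied within a group, such as H4C5, at 3.46, 6.60 and 1.11 CPM with eGFP and 0.404, 0.458 and 1.15 CPM with SF3B2. H4C3 was the only member with a positive sign, at 8.65, 9.10 and 8.54 CPM and then 8.92, 11.2 and 10.7 CPM. Summed over the 47 genes, the eGFP libraries were at 149, 209 and 127 CPM, the SF3B2 libraries at 81.5, 84.5 and 114 CPM, the scramble libraries at 112, 121 and 119 CPM and the snaR-A libraries at 191, 166 and 159 CPM. Without SF3B2 replicate 3 the median was -1.36 with 8 genes at an adjusted p under 0.05, where 3.92% of all genes were lower. Without replicate 3 of either group it was -1.52 with 19, where 2.12% of all genes were lower. The weakest median with 1 library left out was -0.53. The 41 tested genes of the cell cycle had a median of 0.00 and none with an adjusted p under 0.05. At an unadjusted p under 0.05, 4 were higher and 3 lower, against 10.2% and 11.4% of all genes. By DESeq2, 2 were lower at an adjusted p under 0.05, against 4.44% of all genes. TOP2A was at 818, 768 and 832 CPM and then 880, 893 and 867 CPM.

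**Figure D4:**
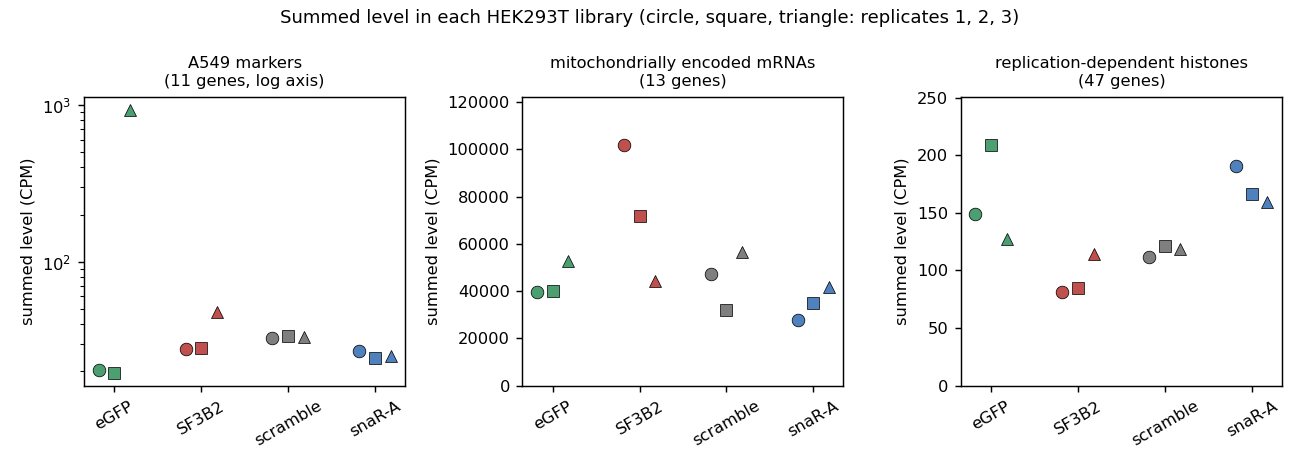
Summed level (CPM, y axis) of the tested A549 markers, the mitochondrially encoded mRNAs and the replication-dependent histone genes in each HEK293T library, by plasmid (x axis), with replicates 1, 2 and 3 as circle, square and triangle. eGFP replicate 3 is at 932 CPM of A549 markers on the log axis, and SF3B2 replicates 1 and 2 are the highest for mitochondrial mRNAs and the lowest for histones. SF3B2 replicate 3 lies among the eGFP libraries for mitochondrial mRNAs, and for histones, at 114 CPM, between eGFP and the other SF3B2 replicates.

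The medians of the immune gene lists changed when eGFP replicate 3, which carried A549 transcripts, was left out. The median log2 fold change of 43 interferon response genes was -0.26 and of 20 NF-kB and inflammatory genes -0.54, with no adjusted p under 0.05 in either list and 4 and 0 higher and 6 and 5 lower at an unadjusted p under 0.05. By DESeq2 1 and 0 were higher and 2 and 2 lower, and without SF3B2 replicate 3, 1 and 0 were higher and 3 and 2 lower. The shares of all genes were 10.2% higher and 11.4% lower at an unadjusted p under 0.05. With adjustment they were 4.75% and 4.44% by DESeq2, and 4.17% and 3.92% without SF3B2 replicate 3. Without eGFP replicate 3 the medians were 0.14 and 0.25, and without replicate 3 of either group they were -0.07 and 0.25. The interferon genes summed to 437 and 430 CPM in eGFP replicates 1 and 2, 572 CPM in eGFP replicate 3 and 484 to 530 CPM with SF3B2. ALDH1A1, an A549 marker, was at 3.96, 3.68 and 494 CPM with eGFP and at 6.30, 6.03 and 14.5 CPM with SF3B2, and the median of the 11 tested A549 markers was -4.24, or 1.22 without eGFP replicate 3. A few members were lower in each SF3B2 library than in eGFP replicates 1 and 2 as well. ISG15, the ubiquitin-like modifier induced by interferon, was at 2.48, 2.65 and 2.47 CPM with eGFP and at 1.45, 1.32 and 1.59 CPM with SF3B2 (adjusted p = 0.0639), and ICAM1, an adhesion molecule induced by NF-kB, at 0.801, 1.11 and 0.996 CPM and then 0.360, 0.272 and 0.222 CPM (0.0572). EIF2AK2, the double-stranded RNA sensor PKR, was at 137, 134 and 163 CPM and then 223, 196 and 161 CPM. NFKB1 was at 41.9, 45.2 and 42.6 CPM and then 39.1, 36.0 and 39.1 CPM (adjusted p = 0.156).

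In the remaining pathway and marker lists no gene had an adjusted p under 0.05. Of 21 small nucleolar RNA host genes, whose introns carry small nucleolar RNAs, 19 had a negative sign and 6 were lower at an unadjusted p under 0.05, against 11.4% of all genes, with a median log2 fold change of -0.19. At an adjusted p under 0.05, 3 were lower both by DESeq2 and without SF3B2 replicate 3, against 4.44% and 3.92% of all genes. SNHG15 was at 69.8, 77.4 and 62.8 CPM with eGFP and at 33.2, 38.1 and 53.1 CPM with SF3B2, groups that did not overlap (adjusted p = 0.110). The medians were -0.17 for 28 immediate early genes, -0.07 for 28 p53 targets, -0.02 for 30 sterol synthesis genes, 0.06 for 33 genes of the epithelial-mesenchymal transition, -0.10 for 6 metal response genes and 0.07 for 10 neighbors of SF3B2 on chromosome 11. MDM2, the p53 target that degrades p53, was at 240, 255 and 248 CPM and then 311, 301 and 272 CPM (adjusted p = 0.146). The epithelial-mesenchymal list had a median of 0.21 without eGFP replicate 3. At an unadjusted p under 0.05, the p53 targets had 4 higher and 4 lower, the epithelial-mesenchymal genes 5 and 1, the sterol genes 6 and 0, and the immediate early genes 1 and 6. Leaving out SF3B2 replicate 3, 4 p53 targets were higher at an adjusted p under 0.05 and 0 lower, with 4 and 0 in the epithelial-mesenchymal list, 2 and 1 in the sterol list and 0 and 2 in the immediate early list. DESeq2 had 4 higher and 2 lower, 4 and 0, 4 and 0, and 0 and 5 in the same order. The shares of all genes were 10.2% higher and 11.4% lower at an unadjusted p under 0.05. With adjustment they were 4.17% and 3.92% without SF3B2 replicate 3, and 4.75% and 4.44% by DESeq2. Protein-coding genes with a single exon, histones left out, had a median of -0.07 over 285 genes, 2 of them lower at an adjusted p under 0.05, and those with several exons -0.01 over 15352, with 6 higher and 18 lower.

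**Figure D5:**
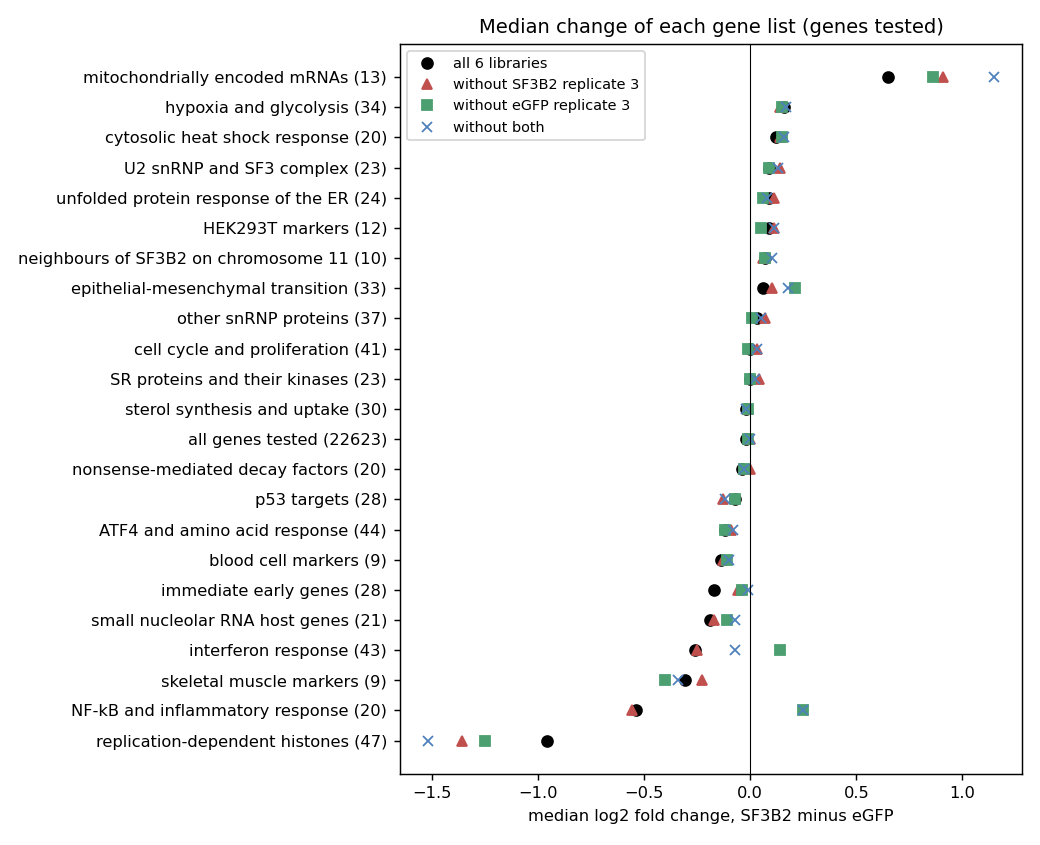
Median log2 fold change of SF3B2 over eGFP (x axis) for the gene lists with 9 or more genes tested (y axis, with that number; A549 markers, at -4.24, are left out), from all 6 libraries and without SF3B2 replicate 3, eGFP replicate 3 or both. Mitochondrial mRNAs at 0.65 and histones at -0.96 lie farthest from 0 and move away from it when either library is left out, while the interferon and NF-kB lists cross 0 without eGFP replicate 3.

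The A549 libraries gave the same contrast in samples that took no part in these calls. Of the 30 genes, 25 were tested in A549 and 3 of them had an adjusted p under 0.05 with the same sign, namely SF3B2, BTK and BTC, against 7.02% of the 21581 genes tested there (3.42% higher and 3.6% lower). None had the opposite sign at that level, and 13 of the 25 had the same sign. SF3B2 counts among the 3 and the 13, but the plasmid carries it in both lines, so its result was fixed in advance. BTK was at 0.437, 0.490 and 0.356 CPM with eGFP and at 1.52, 1.39 and 1.45 CPM with SF3B2 in A549 (log2 fold change 1.76 ± 0.14 SE, adjusted p = 0.000841). BTC had a mean of 8.65 CPM with eGFP and 4.67 CPM with SF3B2 (log2 fold change -0.89 ± 0.09 SE, adjusted p = 0.00289). INHBE, at 1.12 CPM with eGFP and 1.21 CPM with SF3B2 on average, changed by 0.12 ± 0.22 on the log2 scale (SE, adjusted p = 0.797). In an interaction test over the 12 libraries, 21 of the 30 genes differed between the lines at an adjusted p under 0.05, against 6.1% of 24714 genes. These 30 had been chosen on the HEK293T difference that enters the test, so their share is not independent of the choice.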

How the data were processed

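Stranded poly(A) RNA-seq libraries of HEK293T cells, made after rRNA depletion, were compared. The authors trimmed reads with Trim Galore, quantified transcripts with Salmon on hg38, and deposited the estimated counts, summed to 60236 Ensembl genes, with no scaling between libraries. The tool that summed transcripts to genes and the annotation release are not given in the sources used here. Of the values, 51% were not whole, and all were rounded. No column was left unmapped (0).

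Genes kept by filterByExpr (22623) were TMM-normalized and tested with edgeR 4.0.16 (R 4.3.3) by the quasi-likelihood F-test, p-values were adjusted after Benjamini and Hochberg, and adjusted p-values in the text come from it. DESeq2 1.42.0 and exactTest were alternatives, with RLE or library-size scaling, other filters, all 12 HEK293T libraries, the replicate block and libraries left out. Tests were checked on simulated data. The A549 contrast and the interaction were fitted the same way and were added later. Python 3.11.15, pandas 2.3.3, numpy 2.4.6 and matplotlib 3.10.9 made the tables and plots. Symbols were found for 54903 IDs, and positions come from GENCODE 44 on GRCh38. Sharing was measured on 31-base words of its transcripts. No 2 replicates were copies, since chi-square per gene was at least 42.97 in every pair within a group.

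Named genes were SF3B2 and NME1, every gene with a symbol past the threshold, the 5 largest further changes in each direction in the repeats without a replicate 3, up to 3 members a list, and the 5 genes at the highest level in each direction. Others were chosen after their values were seen, and 1 gene that the rule names is not reported here. Members, lists and tests were chosen with earlier results of these data known.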

Additional observations from a re-analysis of the deposited data

Results flagged for a closer look

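Between the lines, 20 named genes with an adjusted p under 0.05 in HEK293T differed in their response to SF3B2, by an interaction test at an adjusted p under 0.05. Genes listed at 0 in a whole group, PVALB and TAS2R14 among them, are left out, since their fitted difference has no fixed size. Values are the log2 fold change in A549 minus that in HEK293T. Among genes that fell in HEK293T, the difference was 2.17 for INHBE, 1.55 for COPZ2, 1.08 for MYH3, 1.96 for C3orf20, 1.75 for ITGA10, 1.72 for TNXB, 0.64 for BTC, 1.32 for FOXD4, 1.38 for FOXD4L5, 1.86 for RPL7AP16, 2.72 for RPL7AP33 and 1.02 for PARGP1. At smaller changes it was 0.56 for MSANTD7, 0.68 for ZNF274, 0.68 for H3C6 and 0.75 for H2AC6. Among genes that rose in HEK293T it was -0.89 for HSP90B2P, -1.50 for LINC02246, -0.73 for ADAMTS1 and -0.57 for ID2. All 20 differences pointed away from the HEK293T change, by which the genes had been chosen. BTK, at -0.71 with an adjusted p of 0.104, did not pass.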

How the results depend on the processing

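From the 30 calls (6 higher, 24 lower) and 39 genes with an adjusted p under 0.05, DESeq2 gave 226 (62, 164) and 2079, exactTest 250 (60, 190) and 644, all 12 HEK293T libraries 270 (78, 192) and 2075, at least 10 counts in every library 69 (13, 56) and 109, and library-size scaling 73 (66 lower) and 126. Without replicate 3 of either group there were 280 (87, 193) and 824. With 1 library left out the ranges were 1 to 335 calls, 1 to 119 higher, 0 to 216 lower and 1 to 1883 genes. Same-numbered libraries of the 2 groups had residual correlations of -0.0332, 0.0477 and 0.0192. Those of differently numbered libraries lay between -0.09 and 0.0705. Correlations over all genes cannot exclude a batch shared by same-numbered libraries. The libraries numbered 3 had the highest A549 transcripts of the HEK293T libraries, at 5.59% (eGFP) and 0.177% (SF3B2) of the A549 level. Whether the numbers mark a batch was not tested. With the replicate block, 1 call remained, SF3B2 (1 higher, 0 lower; 1 gene with an adjusted p under 0.05), and SF3B2 replicate 3 correlated best with eGFP replicate 1. The log2 fold change of SF3B2 was 6.42 to 6.77 with 1 library left out and 6.58 with the block. RLE scaling and no low-count filter left each of these counts within 1.5 times. The cause of these differences was not tested.

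Over the 79 genes checked, 861 of 1177 repeats kept direction and side of the threshold, 179 lost and 131 gained an adjusted p under 0.05, and 6 changed sign: NME1 (0.00) and SF3A1 (-0.03) without SF3B2 replicate 1 (with 1 library left out they ran from -0.12 to 0.00 and from -0.03 to 0.61), SF3B1 (-0.09) and TOP2A (-0.04) with library-size scaling, and ALDH1A1 without eGFP replicate 3 (1.22, and -4.81 at the other end) and without both (0.70). Genes near 3 counts are limited by depth.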
